A study of Mus musculus with 6 samples.

Results

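The genes described here were 32 genes of the oligodendrocyte lineage and of myelin, chosen by name. Of these, 30 were measured, among 18193 genes with a probe set that carries exactly 1 symbol. Each gene was read at its probe set of highest mean over the 6 arrays. Trf was left out because its probe set carries the symbol of another gene as well, and Enpp2 was not analysed here. The 30 genes were split into 8 progenitor and lineage genes and 22 myelinating genes.

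RNA of green fluorescent cells sorted from mouse cerebral cortex was hybridised to 6 arrays, 3 per group, each from a pool of about 15 animals. The reactive group came from FVB/N mice of 2 to 3 months with the transgene TgN(hGFAP-EGFP) GFEA, whose reporter is driven by a human GFAP promoter. They received a stab wound 0.7 mm deep in the grey matter of the somatosensory cortex, and cells were taken 5 days post-injury. The non-reactive group came from uninjured FVB/N mice of 2 to 3 months with the transgene Tg(Aldh1l1-eGFP)OFC789Gsat, whose reporter is driven by Aldh1l1 regulatory sequence. Injury and reporter line changed together, so their parts in any difference cannot be told apart. The labels leave the sex of the mice undetermined and do not say whether the animals of the arrays received the BrdU that the protocol also describes.

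Oligodendrocytes wrap axons in myelin, a stack of membranes that insulates the axon and is rich in galactolipids and in a small number of abundant proteins. They form from progenitor cells that carry the receptor Pdgfra and the chondroitin sulphate proteoglycan NG2, and that persist in the adult cortex. Olig1, Olig2, Sox10 and Nkx2-2 set the lineage, Gpr17 marks committed precursors, and Myrf switches on the genes of myelin. Neither reporter is meant to label these cells, and both groups were sorted as astrocytes.

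The deposited values were log2 expression values, and a difference of 1 on this scale is 2-fold. The 6 array medians lay between 4.65 and 4.73 and the highest values between 14.68 and 14.73. The median of all probe set means was 4.74, and the size of a difference is uncertain for genes near or below it. Arrays correlated at 0.901 to 0.921 among the reactive and at 0.95 to 0.963 among the non-reactive arrays. Of the 14 measured astrocyte markers, Aldh1l1 measured 8.89 ± 0.24 on reactive and 9.46 ± 0.23 on non-reactive arrays (log2, SD, n = 3), and 6 markers fell. These were Slc4a4, Gpc5, Gjb6, Sox9, Slc1a3 and Gja1, with log2 differences of -2.98 to -1.38, while Gfap rose by 3.12. In all, 13 of the 14 lay below 0, and the list median was -1.65, against 0.12 over all genes. For 12 of them the groups did not overlap, with the reactive arrays lower, against 8.2% of all genes. The sort for the reactive group ran through a GFAP promoter, so the parts of sort and injury in Gfap cannot be told apart.

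Of the 22 genes of myelinating oligodendrocytes, 17 had a higher mean in the reactive arrays, against 60.7% of all genes, and 2 rose by the test. Gpr37, an orphan G protein-coupled receptor of maturing oligodendrocytes, rose 5.15-fold. Ermn, which encodes ermin, a cytoskeletal protein of myelinating oligodendrocytes, rose 4.49-fold. None of the 8 progenitor and lineage genes passed (limma). Of these 8, 1 (12.5%), Gpr17, had an unadjusted p under 0.05, as had 15% of all genes in either direction. No gene of either group fell by the test. The test was limma on all 6 arrays with Benjamini-Hochberg adjustment over 45037 probe sets and a threshold of 0.05. By the same test 0.951% of all 18193 genes passed in either direction and 0.39% as higher.

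The promoters of 3 of these genes are shown as the regulatory sequence of the transcripts that passed: Gpr37, Ermn and Cnp, whose other probe set passed. They are RefSeq windows from 250 bases before to 50 after the start, written 5′ to 3′. Capitals mark matches, on either strand, to a SOX core (ACAAT), a MYRF-type motif (CTGGCAC) or the E-boxes CAGCTG and CATATG, none of which contains another.
Gpr37 promoter, GRCm38.p6 chr6:25689931-25690230, minus strand: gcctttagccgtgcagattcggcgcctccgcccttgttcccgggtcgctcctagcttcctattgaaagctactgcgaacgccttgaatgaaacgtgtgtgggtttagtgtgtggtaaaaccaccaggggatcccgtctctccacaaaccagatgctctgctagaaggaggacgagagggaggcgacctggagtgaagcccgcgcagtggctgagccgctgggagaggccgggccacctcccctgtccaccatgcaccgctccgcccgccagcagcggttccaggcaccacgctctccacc
Ermn promoter, GRCm38.p6 chr2:58052815-58053114, minus strand: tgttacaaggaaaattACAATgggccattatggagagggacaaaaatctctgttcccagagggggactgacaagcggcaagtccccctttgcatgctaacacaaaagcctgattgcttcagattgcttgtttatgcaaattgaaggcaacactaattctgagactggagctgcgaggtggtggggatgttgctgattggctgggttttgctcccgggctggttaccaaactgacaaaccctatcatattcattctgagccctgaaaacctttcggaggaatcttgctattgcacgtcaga
Cnp promoter, GRCm38.p6 chr11:100574689-100574988, plus strand: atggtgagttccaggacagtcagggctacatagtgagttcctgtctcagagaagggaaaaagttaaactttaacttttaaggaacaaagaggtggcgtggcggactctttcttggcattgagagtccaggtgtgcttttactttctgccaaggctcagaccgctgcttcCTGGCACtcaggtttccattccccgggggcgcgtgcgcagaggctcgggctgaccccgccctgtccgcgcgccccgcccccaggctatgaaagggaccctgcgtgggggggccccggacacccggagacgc
The Ermn window held 1 SOX core, the Cnp window held 1 MYRF-type motif, and the Gpr37 window held no match. Of the 30 genes 22 had a window in the RefSeq table, some of them with several starts. The SOX core lay in windows of 7 of these 22 genes (31.8%) and in 31% of all 32851 windows. The MYRF-type motif lay in those of 4 genes, Cnp, Lpar1, Mag and Opalin (18.2%), and in 5.01% of all windows. CAGCTG lay in those of 4 genes (18.2%) and in 16.3% of all windows, and CATATG in those of 1 gene and in 3.91% of all windows. A gene counted if any of its windows held the motif, while the share of all windows counts each window, so these shares are not measured alike. These matches describe the letters of the windows and were not tested.

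Gpr37 measured 7.40, 7.59 and 8.20 on reactive arrays 1, 2 and 3, and 5.75, 5.24 and 5.10 on non-reactive arrays 1, 2 and 3 (log2, probe set 1450875_at). All 3 reactive arrays lay above all non-reactive ones, with 1.64 between the nearest arrays of the groups. The log2 difference was 2.37 (SE 0.30, 95% interval 1.65 to 3.08, limma adjusted p = 0.0344).

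Ermn measured 9.11, 8.98 and 9.52 on the reactive and 7.45, 6.63 and 7.02 on the non-reactive arrays (probe set 1440902_at). The groups did not overlap. The log2 difference was 2.17 (SE 0.28, 95% interval 1.49 to 2.84, limma adjusted p = 0.0363), and a fainter probe set of Ermn differed by 1.61 (adjusted p = 0.207). Gpr37 and Ermn lost their calls when any 1 of the 6 arrays was left out, with limma adjusted p = 0.0562 to 0.131 for Gpr37 and 0.064 to 0.123 for Ermn. Their log2 differences then stayed between 2.13 and 2.56 and between 1.97 and 2.38. Over all alternatives the adjusted p ran from 0.0235 to 0.14 for Gpr37 and from 0.0294 to 0.124 for Ermn.

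**Figure D1:**
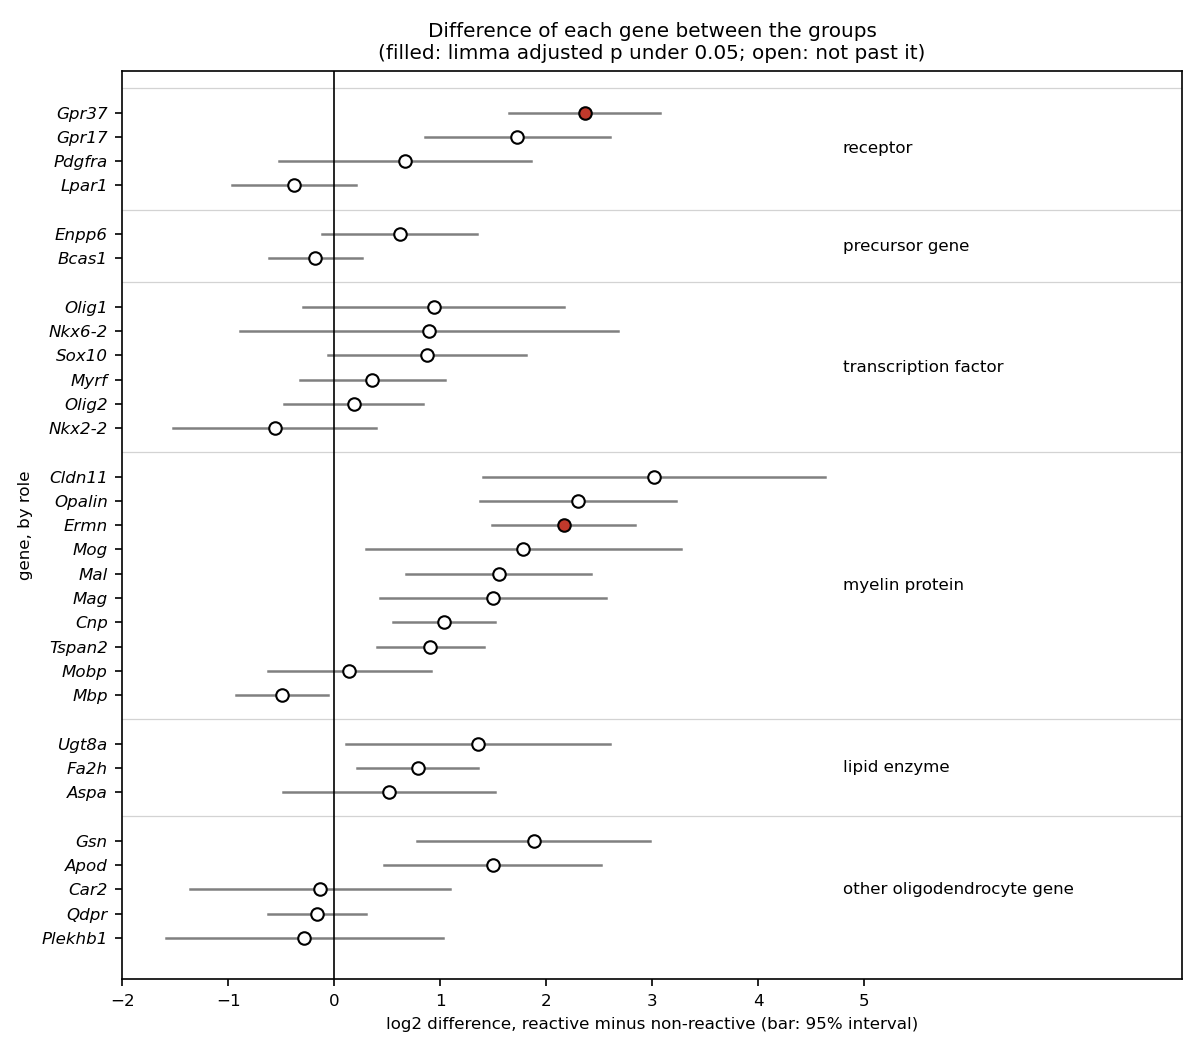
Log2 difference between reactive and non-reactive arrays (x axis) for each of the 30 genes (y axis, by role), with 95% intervals from limma and n = 3 per group. Gpr37 at 2.37 and Ermn at 2.17 are the filled points, and most myelin proteins lie to the right of 0 while Mbp lies at -0.49.

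Of the 10 genes of myelin proteins, 9 had a log2 difference above 0, against 60.7% of all genes. The median of the 10 was 1.52, against 0.12 over all genes. Besides Ermn none passed at its probe set of highest mean. Opalin, a transmembrane protein of the myelin paranode, measured 8.97, 8.82 and 9.70 on the reactive and 6.79, 6.28 and 7.51 on the non-reactive arrays. It differed by 2.30 (SE 0.39, 95% interval 1.37 to 3.23) without passing (limma adjusted p = 0.0615). Its arrays did not overlap between the groups, and with its 2 probe sets averaged it differed by 1.30.

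Cldn11, the claudin that seals the tight junctions between myelin layers, had the largest difference of the 30 genes and also a wide spread. It measured 8.09, 7.68 and 8.91 on the reactive arrays. On the non-reactive arrays it measured 4.06, 4.91 and 6.66, so that replicate 3 lay well above the other two, which were near or below the median of all probe sets. The log2 difference was 3.02 (SE 0.68, 95% interval 1.40 to 4.63, limma adjusted p = 0.122). It was 3.74 with non-reactive replicate 3 left out, so its size is uncertain.

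Mog, Mag and Mal showed the same high value on non-reactive replicate 3. Mog, a myelin surface glycoprotein, measured 6.74, 5.46 and 7.58 on the reactive and 4.18, 4.52 and 5.72 on the non-reactive arrays, and the groups overlapped. It differed by 1.79 (SE 0.62, 95% interval 0.30 to 3.27), and its non-reactive mean of 4.81 lay near the median of all probe sets. Mag, the adhesion glycoprotein of the innermost myelin layer, measured 8.39, 8.66 and 9.30 against 6.85, 6.81 and 8.20. It differed by 1.50 (SE 0.45) with groups that did not overlap. Mal, a proteolipid of myelin membranes, differed by 1.55 (SE 0.37), from 8.83 ± 0.57 to 10.38 ± 0.44 (log2, SD, n = 3), and by 0.52 at its other probe set.

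Tspan2, a tetraspanin of oligodendrocytes, measured 7.21, 7.39 and 7.66 on the reactive and 6.37, 6.53 and 6.64 on the non-reactive arrays. The groups did not overlap, and it differed by 0.91 (SE 0.21, limma adjusted p = 0.132). Its other probe sets differed by 2.68 (adjusted p = 0.0566) and 1.75 (adjusted p = 0.425), and the mean of the 3 by 1.78 (adjusted p = 0.053), all by limma. Cnp, a phosphodiesterase of non-compact myelin, measured 12.87, 12.87 and 13.18 against 11.91, 11.81 and 12.08 at its brightest probe set. It differed there by 1.04 (SE 0.20, 95% interval 0.56 to 1.52, limma adjusted p = 0.087). A dimmer Cnp probe set, 1418980_a_at, measured 9.11, 9.60 and 9.68 on the reactive and 7.45, 6.89 and 7.35 on the non-reactive arrays. That probe set rose 4.69-fold (log2 difference 2.23, SE 0.26, limma adjusted p = 0.0283).

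The myelin genes Mbp and Mobp had log2 differences near or below 0 at their brightest probe sets. Mbp, the protein that holds the inner faces of the myelin membrane together, measured 13.41, 13.32 and 13.28 on the reactive arrays. On the non-reactive arrays it measured 13.80, 13.74 and 13.94, all above the reactive ones. It differed by -0.49 (SE 0.18, 95% interval -0.93 to -0.06, limma adjusted p = 0.327). Mobp, another abundant protein of compact myelin, differed by 0.14 (SE 0.32, 95% interval -0.62 to 0.91). Its difference was -0.072 when non-reactive replicate 2 was left out.

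The probe sets of Mbp disagreed with each other. Of its 8 probe sets 3 differed above 0 and 5 below, from -1.58 to 1.50, and none passed. The one at 1.50, 1451961_a_at, measured 8.42, 9.37 and 9.27 on the reactive and 7.21, 7.50 and 7.87 on the non-reactive arrays. The one at -1.58 was spread from 6.52 to 9.73 within the reactive group. All 5 probe sets of Mobp differed above 0, by up to 1.25. In all, 16 of the 30 genes had several probe sets. Those of 11 genes lay on the same side of 0 and those of 5 genes, Apod, Bcas1, Mbp, Pdgfra and Qdpr, on both sides. Of the 65 probe sets of these genes 3 rose, 1 each of Cnp, Ermn and Gpr37, and none fell.

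**Figure D2:**
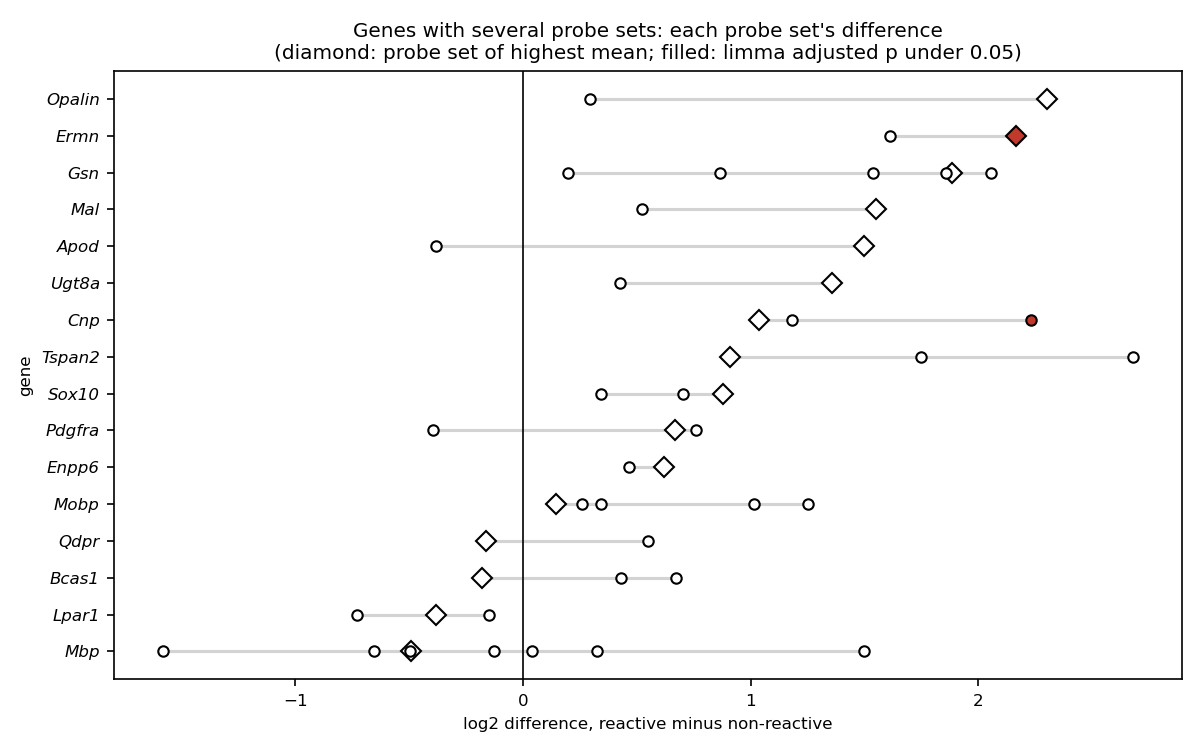
Log2 difference of each probe set (x axis) for the 16 genes with several probe sets (y axis). Diamonds are the probe sets of highest mean, filled symbols passed limma at an adjusted p of 0.05, and the probe sets of Mbp reach from -1.58 to 1.50.

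The 3 measured lipid enzymes differed above 0 and none passed (limma), while 2 had an unadjusted p under 0.05. Over all genes 60.7% differed above 0, and 7.88% were higher at that p limit. Ugt8a, which makes the galactosylceramide of myelin, measured 7.68, 8.37 and 7.74 on the reactive and 6.17, 5.80 and 7.74 on the non-reactive arrays. Non-reactive replicate 3 thus reached the reactive level, and the log2 difference was 1.36 (SE 0.52). Fa2h, which hydroxylates fatty acids for these galactolipids, differed by 0.79 (SE 0.24) with groups that did not overlap. Aspa, which splits N-acetylaspartate, differed by 0.52 (SE 0.42, 95% interval -0.48 to 1.51), and by 0.25 to 0.94 with any 1 array left out.

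The other oligodendrocyte genes, which are also transcribed in other cells, were divided. Gsn, the actin-severing protein gelsolin, measured 10.35, 10.59 and 11.85 on the reactive and 8.50, 9.14 and 9.50 on the non-reactive arrays. It differed by 1.88 (SE 0.46, limma adjusted p = 0.147), and 6 of its 6 probe sets differed above 0. Apod, a lipid-binding apolipoprotein, measured 8.08, 8.38 and 9.62 against 7.45, 6.83 and 7.31. It differed by 1.50 (SE 0.43), and its groups did not overlap, with reactive replicate 3 the highest for Gsn and Apod.

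Some markers of several other cell types stood out on that array. The mean log2 level of the 6 fibroblast markers was 6.83 on reactive replicate 3, 4.58 and 4.38 on reactive replicates 1 and 2, and 4.36 to 4.63 on the 3 non-reactive arrays. The summed linear signal of the 9 endothelial markers was 1226 on reactive replicate 3 and 183 to 263 on the other arrays, with Cldn5 at 9.36 and Kdr at 8.73. The endothelial markers Flt1, Slco1a4 and Emcn and the fibroblast marker Lum were not highest there, and Emcn was lowest there at 2.57. Acta2, a muscle actin of pericytes and vessel walls, measured 8.63 there and 4.56 to 5.39 elsewhere, while the summed signal of the neuron markers was lowest there. Tagln was also highest there, while the pericyte markers Pdgfrb, Rgs5, Kcnj8, Abcc9, Myh11 and Vtn were not. The summed signal of the 14 microglia and macrophage markers was 38917 there, and 28454 and 24319 on reactive replicates 1 and 2. All of these markers but Cx3cr1 and P2ry12 were highest there. Without reactive replicate 3 the log2 differences were 1.42 for Gsn and 1.03 for Apod, and the part of these other cells in them was not tested. With its 2 probe sets averaged Apod differed by 0.56. Car2, a carbonic anhydrase, differed by -0.14 (SE 0.51), Qdpr, a pteridine reductase, by -0.16 (SE 0.20) and Plekhb1, a pleckstrin homology domain protein, by -0.28 (SE 0.55). Car2 ranged from 9.96 to 11.54 within the reactive group, a wider range than the difference between the groups.

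The other receptors had differences of unlike size and sign, and none passed. Gpr17, a receptor of committed precursors, measured 7.24, 8.29 and 7.04 on the reactive and 5.68, 5.62 and 6.09 on the non-reactive arrays. The groups did not overlap, and it differed by 1.73 (SE 0.37, 95% interval 0.85 to 2.60) without passing (limma adjusted p = 0.107). Pdgfra, the growth factor receptor of the progenitors, measured 8.51, 8.47 and 6.93 on the reactive and 7.91, 6.94 and 7.06 on the non-reactive arrays. Reactive replicate 3 was the lowest of the 6 arrays, and the difference was 0.67 (SE 0.50, 95% interval -0.52 to 1.86), or 1.19 without that array. Lpar1, a lysophosphatidic acid receptor, differed by -0.38 (SE 0.25).

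The transcription factors of the lineage overlapped between the groups, all 6 of them, as did 14244 of all 18193 genes. Over the arrays left out in turn, the overlap ended at least once for 5 of the 6, with the reactive arrays higher. These were Olig1, Olig2 and Sox10 without reactive replicate 1, Sox10, Myrf and Nkx6-2 without non-reactive replicate 3, and Olig1 without non-reactive replicate 1. For Nkx2-2 the overlap ended without non-reactive replicate 2, with the reactive arrays lower. With 1 array left out, 17.5% to 21.7% of all genes had groups that did not overlap with the reactive arrays higher. This share is for 1 left-out array at a time and includes genes already apart. The 5 of 6 gathers several left-out arrays, so the values are not measured alike. No share of all genes was taken for the lower direction. Sox10, the factor that keeps the lineage and activates myelin genes, measured 8.51, 8.73 and 9.67 on the reactive and 7.99, 7.67 and 8.62 on the non-reactive arrays. It differed by 0.88 (SE 0.39, 95% interval -0.05 to 1.81). Olig1 measured 8.62, 10.15 and 10.38 against 9.36, 8.39 and 8.58. It differed by 0.94 (SE 0.52), with reactive replicate 1 among the non-reactive values. Olig2 measured 6.18, 6.70 and 7.05 against 6.31, 6.65 and 6.42, a log2 difference of 0.18 (SE 0.27) that was -0.021 without reactive replicate 3.

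Myrf, the factor that switches on myelin genes, measured 7.74, 8.13 and 8.51 on the reactive and 7.63, 7.51 and 8.14 on the non-reactive arrays. It differed by 0.36 (SE 0.29, 95% interval -0.33 to 1.05). Nkx6-2, a homeodomain factor of mature oligodendrocytes, measured 6.69, 6.59 and 5.87 against 4.03, 5.30 and 7.14. Its non-reactive arrays spread over more than the difference of 0.89 (SE 0.75), and it differed by 1.72 without non-reactive replicate 3 and by 0.17 without non-reactive replicate 1. Nkx2-2, a homeodomain factor of the progenitors, differed by -0.56 (SE 0.40), and by -0.99 to -0.21 with any 1 array left out, with a reactive mean of 4.71 below the median of all probe sets.

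The precursor genes Enpp6 and Bcas1 had small differences of opposite sign. Enpp6, a choline phosphodiesterase of newly forming oligodendrocytes, measured 5.08, 4.88 and 4.94 on the reactive and 3.71, 4.70 and 4.63 on the non-reactive arrays. The groups did not overlap, and the difference of 0.62 (SE 0.31) started from a non-reactive mean of 4.35, below the median of all probe sets. Without non-reactive replicate 1, the lowest array, it was 0.30. Bcas1, a protein of early myelinating cells, measured 11.86, 11.86 and 11.80 against 12.02, 11.90 and 12.14, a difference of -0.18 (SE 0.18). Its fainter probe sets differed by 0.67 and 0.43.

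**Figure D3:**
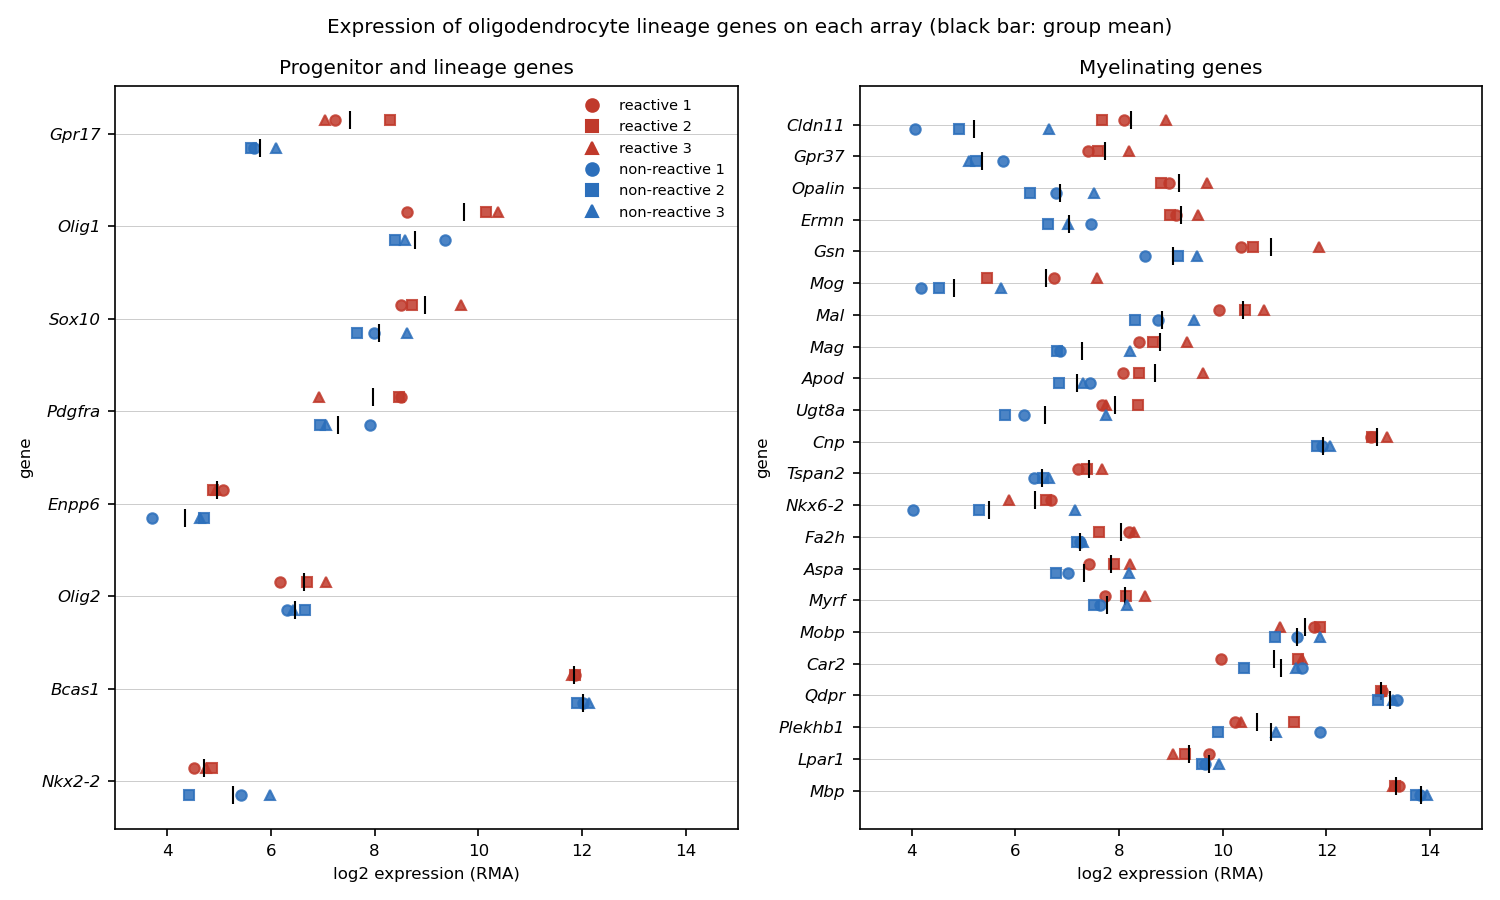
Log2 expression (x axis) of each gene (y axis) on each of the 6 arrays, with progenitor and lineage genes on the left and myelinating genes on the right. Red symbols are reactive and blue symbols non-reactive arrays, black bars are group means, and non-reactive replicate 3 (blue triangle) is the highest of its group for Cldn11, Mag, Ugt8a and Nkx6-2.

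As a group, the 22 myelinating genes had a median log2 difference of 0.97 and the 8 progenitor and lineage genes one of 0.64, against 0.12 over all genes. Above 0 were 17 of 22 and 6 of 8, and 60.7% of all genes. Groups that did not overlap, with the reactive arrays higher, were seen for 11 myelinating and 2 progenitor genes, and for 13.5% of all genes. With the reactive arrays lower they were seen for Mbp and Bcas1, and for 8.2% of all genes. At an unadjusted p under 0.05, 13 myelinating genes and 1 progenitor gene were higher, against 7.88% of all genes. Only 1 of the 30, Mbp, was lower, against 7.13% of all genes. A difference of 2-fold or more, with the reactive arrays higher, was seen for 11 myelinating genes and 1 progenitor gene, against 5.65% of all genes. The difference between the progenitor and the myelinating genes was not tested, and members are not replicates.

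The arrays within a group differed in these genes. Reactive replicate 3 was the highest of the 6 arrays for 15 of the 22 myelinating genes and 3 of the 8 progenitor genes. Non-reactive replicate 2 was the lowest for 13 and 4 of them. Non-reactive replicate 3 was the highest of its group for 16 of the 22 myelinating genes. Expressed as the median distance of a gene from its own mean over the 6 arrays, the myelinating level was 0.34, 0.43 and 0.67 on the reactive arrays. On the non-reactive arrays it was -0.59, -0.82 and 0.09. The progenitor level was -0.04, 0.21 and 0.33 against -0.08, -0.64 and -0.08. The summed linear signals overlapped between the groups. That of the myelinating genes was 39035, 42404 and 45478 on the reactive and 41051, 32561 and 43225 on the non-reactive arrays. That of the progenitor genes was 5123 to 6158 against 4692 to 5658. A sum on the linear scale weighs the brightest genes most. Among the myelinating genes these were Mbp, Qdpr and Cnp, with log2 differences of -0.49, -0.16 and 1.04. Among the progenitor genes it was Bcas1, at -0.18. The sums therefore do not describe the lists as a whole.

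Without reactive replicate 3 the median difference of the myelinating genes was 0.98, and 11 of the 22 had groups that did not overlap with the reactive arrays higher, against 21.1% of all genes. Without non-reactive replicate 3 the median difference of the myelinating genes was 1.33, and 16 of the 22 had such groups, against 21.7% of all genes. Without reactive replicate 1 there were 12 myelinating and 5 progenitor genes with such groups, against 20.1% of all genes. These counts with an array left out were added after the data were seen, and over all 6 arrays in turn they ran from 11 to 16 for the myelinating and from 2 to 5 for the progenitor genes.

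Of the 6 markers of choroid plexus and ependyma, all but Folr1 were higher on non-reactive replicate 3 than on the other non-reactive arrays. Ttr, the choroid plexus transcript transthyretin, measured 11.51 there, against 9.53 and 4.42 on the other non-reactive arrays and 4.16 to 4.81 on the reactive ones, and Kl was also highest there at 4.76. Folr1 measured 4.92 there, between 4.78 and 5.09 on the other non-reactive arrays. The list's median distance from each gene's own mean was 0.37 there, the highest of the 6 arrays. It was -0.38 and -0.47 on the other non-reactive arrays and -0.15 to 0.21 on the reactive ones. Ttr and Kl differed between the groups by -4.06 and -0.47, while Folr1, Foxj1, Ccdc153 and Rsph1 differed by 0.29 to 1.61. The summed linear signal of the list was 3159 on non-reactive replicate 3, 145 and 850 on the other non-reactive arrays and 275 to 375 on the reactive ones. The part of that signal in the values of the myelin genes was not tested.

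Other genes of the lineage were taken from lists drawn up by name. Of 24 measured myelinating genes outside the main list none passed (limma), while 9 had an unadjusted p under 0.05, all higher. By the same p limit 7.88% of all genes were higher. Their median difference was 0.77, against 0.12 over all genes, with 20 above 0, against 60.7%. Groups that did not overlap, with the reactive arrays higher, were seen for 10 of them, against 13.5% of all genes. Klk6, a secreted protease of oligodendrocytes, measured 7.88, 8.36 and 9.67 on the reactive and 5.50, 4.62 and 6.10 on the non-reactive arrays. It differed by 3.23 (SE 0.56, limma adjusted p = 0.0659). Ppp1r14a, an inhibitor of a protein phosphatase, differed by 2.70 (SE 0.45) and Pllp, the proteolipid plasmolipin, by 2.10 (SE 0.34), and these were chosen after their values were seen. The brightest of the list, Cryab and Ndrg1, differed by -0.23 (SE 0.21) and 0.69 (SE 0.31).

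Of 15 measured progenitor genes outside the main list none passed (limma), and at an unadjusted p under 0.05 there were 2 higher and 4 lower. Their median difference was 0.31 and their mean 0.01. Cspg4, which encodes the proteoglycan NG2, differed by 0.32 (SE 0.82). The 2 higher ones were Gjc3, a connexin, at 1.93 (SE 0.64) and Pcdh15, a protocadherin, at 1.80 (SE 0.57), both with groups that did not overlap. The 4 lower ones were Ptprz1, a phosphatase receptor, at -2.23 (SE 0.38), the adhesion molecule Cntn1 at -1.86 (SE 0.75), the retinaldehyde-binding protein Rlbp1 at -1.76 (SE 0.38) and the transcription factor Sox6 at -0.81 (SE 0.24). Of all genes 7.88% were higher and 7.13% lower at that limit. On the same arrays 13 of the 14 astrocyte markers also lay below 0, with a list median of -1.65. The part of astrocyte RNA in the 4 lower genes was not tested. Of the 4 measured markers of peripheral myelin, Egr2, which is also an immediate early gene, rose by 1.90, and Pmp2, Pmp22 and Ncmap differed by 0.21, -0.08 and -0.30.

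In pools of sorted cells, fewer cells of a type and less RNA per cell cannot be told apart. Other cell types moved on the same arrays. Of 14 measured markers of microglia and macrophages 5 rose, C1qa, C1qc, Cd68, Tyrobp and Fcer1g, and none fell, with a median difference of 1.85. Their summed linear signal was 24319 to 38917 on the reactive and 9618 to 10158 on the non-reactive arrays. Of 12 neuron markers none passed (limma, with 1 higher at an unadjusted p under 0.05), and their median difference was -0.19. Their summed signal was 5279 to 12435 against 8843 to 12584. The 9 endothelial, 8 pericyte, 6 fibroblast and 6 choroid plexus and ependymal markers had medians of 0.31, 0.31, 0.43 and 0.43 and no call (limma). At an unadjusted p under 0.05 there were no endothelial and no fibroblast markers. Of the pericyte markers 1 was higher at that limit, Tagln, and 2 were lower, Pdgfrb and Rgs5, with differences of -2.24 and -0.98. Of the choroid plexus and ependymal markers 2 were higher, Foxj1 and Rsph1, and 1 was lower, Ttr. No marker is at 0, because these log2 values have no zero.

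The 3′ minus 5′ difference of the control probe sets, a measure of how far the labelled RNA extends from its 3′ end, moved with the groups too. It was 4.17 on reactive and 5.19 on non-reactive arrays for Gapdh, 3.38 and 5.05 for Actb, and 1.44 and 3.46 for Pcx. The part of other cells and of RNA length in the differences of the oligodendrocyte genes was not tested.

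**Figure D4:**
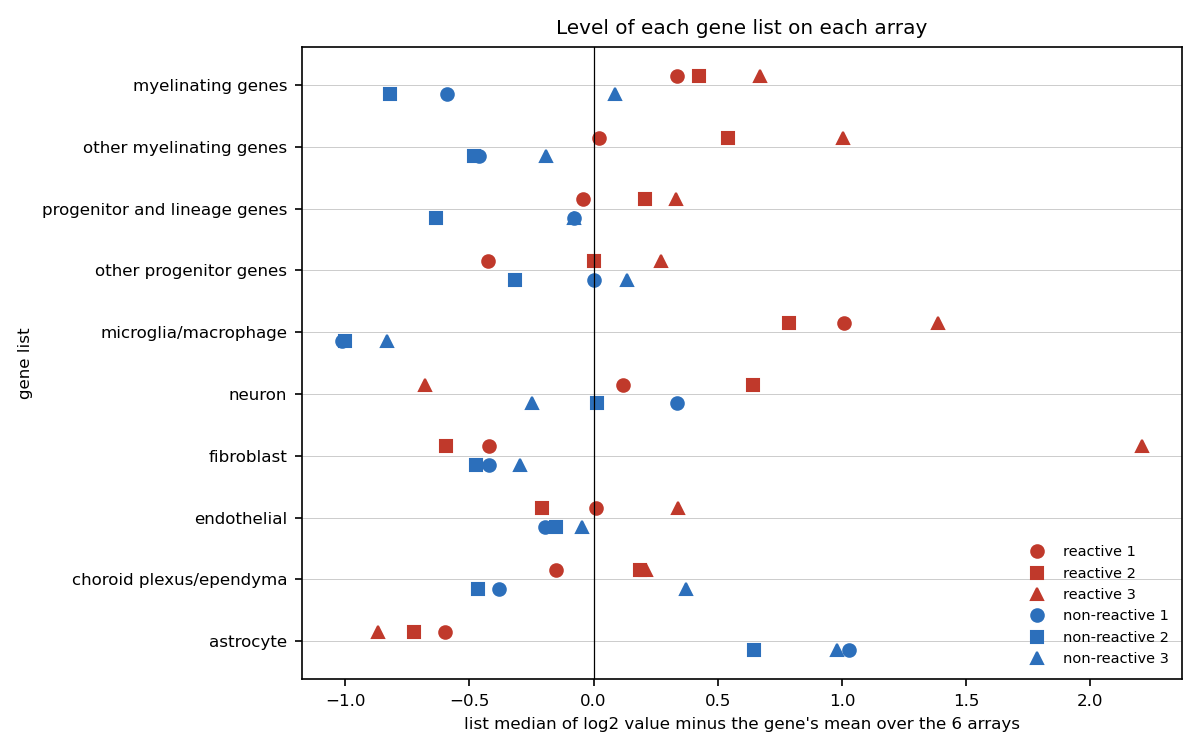
Level of each gene list (y axis) on each array, as the median over its genes of the log2 value minus that gene's mean over the 6 arrays (x axis). Red symbols are reactive and blue symbols non-reactive arrays; the myelinating genes lie between 0.34 and 0.67 on the reactive arrays, and the fibroblast list reaches 2.21 on reactive replicate 3.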

How the data were processed

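RNA of sorted cells was amplified and biotin-labelled in 2 rounds and hybridised to 6 arrays, 3 per group, per the labels' protocols. The authors used RMA to make the deposited values, which are on the log2 scale, per the submitters' processing notes. The RMA version and settings are not given in the sources used. RMA usually equalises the distributions of the arrays, which hides changes in total RNA.

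Of 45101 probe sets 64 controls were left out of the tests. Names came from the platform annotation, in which 34945 of the other 45037 probe sets carry 1 symbol, 932 several and 9160 none. The gene IDs of all 30 measured members matched RefSeq GRCm38.p6, with 0 symbols changed. Reactive minus non-reactive was fitted with lmFit and eBayes of limma 3.58.1 (R 4.3.3), without covariates, two-sided, and tested on simulated data. There 67, 67 and 66 of 45037 probe sets were changed 2-fold, 4-fold and 8-fold, and 0%, 44.8% and 53% of these were called. A gene that did not pass is therefore not shown to be unchanged. The labels call the arrays biological replicates, and with 3 per group their number limits the precision. Errors beside differences are moderated standard errors. Named genes are every measured member. From other lists they are called genes with the largest change and those of highest mean. Genes of other lists named outside this rule were chosen after their values were seen, among them Cspg4, Aldh1l1, Pmp2, Pmp22, Ncmap, Gjc3, Pcdh15, Rlbp1, Sox6 and the markers of endothelial, pericyte and choroid plexus signal. The members and lists were chosen with earlier results of these data known. The alternatives were 3 scalings, 2 other moderations, array weights, a filter on dim probe sets, 2 other choices of probe set, a replicate block and each array left out.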

Additional observations from a re-analysis of the deposited data

How the results depend on the processing

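All 30 genes kept their sign with the deposited values quantile-normalised again, centred on array medians or scaled by cyclic loess, and Gpr37 and Ermn kept their calls there. With eBayes with a trend Cnp rose as well (limma adjusted p = 0.0388). With a gene's probe sets averaged, 1 myelinating gene passed, Gpr37, while Bcas1 differed by 0.31 and Qdpr by 0.19, both on the other side of 0. Without probe sets of the suffixes _x_at, _s_at and _a_at Qdpr differed by 0.55. In a fit with a replicate block, limma called 0 myelinating genes and 0 of all genes, with 2401 at an unadjusted p under 0.05. Deviations of arrays with the same number correlated at -0.07, -0.11 and 0.04 over the probe sets tested. Such weak correlations cannot show whether the arrays were handled in pairs by number. Without any 1 array limma called 0 to 77 of all genes and 0 myelinating genes. The 0 of all genes came without non-reactive replicate 1, 2 or 3, where 2039, 1909 and 2127 genes had an unadjusted p under 0.05. Without reactive replicate 1, 2 or 3 there were 20, 74 and 77. The myelinating median then ran from 0.93 to 1.33. Over the same 6 fits the differences of 4 genes ran across 0, those of Olig2 from -0.021 to 0.42, of Mobp from -0.072 to 0.38, of Plekhb1 from -0.80 to 0.18 and of Car2 from -0.50 to 0.37. The fold of 7 genes moved by over 1.5 times under some alternative: Cldn11 and Nkx6-2 with 1 array left out, Apod, Opalin and Tspan2 with probe sets averaged, and Mal and Qdpr without the suffixed probe sets. The cause of these changes was not tested. Probe sets near the median of 4.74 have little signal over background, which limits Enpp6, Nkx2-2, Mog and Cldn11.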
